A study of Arabidopsis thaliana with 26 samples.

Results

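The loss of RRP6L2 was examined in *Arabidopsis* plants whose exosome core, Exo9, had no phosphorolytic activity. The members were chosen by genotype and were 6 of the 26 libraries of the series: both *rrp6L2 rrp41* RRP41Pi-Cat- libraries against the 4 libraries of *rrp41* RRP41Pi- and *rrp41* RRP41Pi-Cat-, called the reference here. 3′RACE-seq was used to read the 3′ ends of 5′ ETS fragments in total RNA of rosette leaves, with 2 biological replicates per genotype. Replicates were pools of plants grown at different times, all in the Col-0 accession and 6 weeks old, and the sources differ on the day length. All 6 libraries share the T-DNA insertion in *RRP41* and carry a mutated *RRP41* gene behind its own upstream region. RRP41Pi- has changes in the site that holds inorganic phosphate, and RRP41Pi-Cat- is in addition changed in the site that holds magnesium. *rrp6L2 rrp41* RRP41Pi-Cat- adds the *rrp6L2* T-DNA insertion. RRP6L2 was thus lost in RRP41Pi-Cat- plants only, while the reference holds both mutated forms. The reads cover the 5′ ETS only, so neither the *rrp6L2* nor the *rrp41* genotype could be checked in them.

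In plants, the exosome core Exo9 degrades RNA from its 3′ end by phosphorolysis through its subunit RRP41, whereas the hydrolytic enzymes RRP44 and RRP6L2 act beside it. The 5′ ETS is the leader of the pre-rRNA that is cleaved at the P site and trimmed and degraded in the nucleolus after release. Nuclear poly(A) polymerases of the TRAMP type add short oligo(A) tails to such by-products, and these tails are removed when 3′ to 5′ exonucleases enter the RNA. RRP6L2 is the nucleolar member of the plant RRP6 family, which is known for the accumulation of polyadenylated rRNA by-products when it is lost.

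The ends are named by their position from the first nucleotide of the forward primer just downstream of the P site, so that the number in the name is the number of encoded nucleotides. Positions 1 to 200 match TAIR10.1 without mismatch once, at chr3:14197115-14197314 on the plus strand, upstream of the 18S rRNA gene AT3G41768, which begins 363 nt further. Positions 140 to 200 match at 3 places, chr3:14197254-14197314, chr2:3283-3343 and chr2:7191300-7191360, all on the plus strand, and the reads of rRNA gene copies cannot be assigned to one of them. At the chromosome 3 site no gene is annotated over these 61 nt. They are shown on 2 lines, since all ends that differed in their share of reads lie in this stretch, first with the 9 ends in capitals that were often tailed when RRP6L2 was lost (P164, P165, P169, P172, P173, P176, P177, P179 and P180), then with P166 and P186 in capitals, abundant ends that were rarely tailed.
Often tailed ends: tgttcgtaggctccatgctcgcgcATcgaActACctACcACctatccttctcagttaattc
Rarely tailed ends: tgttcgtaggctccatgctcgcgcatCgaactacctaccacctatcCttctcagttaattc
The molecules that carry the finding are the same fragments with untemplated tails. For 4 of the ends, the last 20 encoded nucleotides are given with the most frequent tail of at least 4 nt in *rrp6L2 rrp41* RRP41Pi-Cat- in capitals, which was read 16, 22, 21 and 15 times, in this order.
P164: gtaggctccatgctcgcgcaAAAA
P165: taggctccatgctcgcgcatAAAAA
P169: ctccatgctcgcgcatcgaaAAAA
P172: catgctcgcgcatcgaactaAAAA

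The way tails were recorded sets what these positions can mean. A tail is the part of a read that does not match the reference, so an A added to a fragment ending before an encoded A counts as encoded. P164, P169, P172, P176 and P179 end in such an A. A-tailed fragments ending at P163, P171, P175 or P178 are therefore recorded at the next position. Fragments ending at P168, and those ending at P167 with more than a single A, are recorded at P169 when A-tailed. In addition, reads whose second tail nucleotide equals the reference at that place had been removed. None of the 26426 tails of at least 2 nt in the table has such a match. From P163 to P184 the second reference base is A beyond P166, P167, P170, P174, P177 and P181. None of the 64, 58 and 138 tailed reads at P166, P170 and P177 in *rrp6L2 rrp41* RRP41Pi-Cat- had A as its second tail nucleotide. Of these tails, however, 67.2%, 94.8% and 97.8% had 1 nt and so no second nucleotide. A tails of at least 2 nt at P166, P170, P174, P177 and P181 are thus missing, and only single As remain. Such reads are missing from the read counts too, so the tailed share of these ends is underestimated where they occurred. These rules hold for all 6 libraries alike.

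The number of reads was 1621 and 1639 in *rrp41* RRP41Pi-, 8469 and 3868 in *rrp41* RRP41Pi-Cat-, and 6046 and 7225 in *rrp6L2 rrp41* RRP41Pi-Cat-, for replicates 1 and 2. They hold 2382 tailed reads among 28868 reads. A count of 3 reads, taken as the smallest detectable number, is 0.185% of reads in the smallest of these libraries and 0.0354% in the largest. Duplicates had been removed with the random nucleotides of the adapter, and the 95% Wilson intervals given here cover counting error only.

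The share of tailed reads was higher in both libraries without RRP6L2 than in every reference library. Tails of at least 1 nt were found on 4.01% (3.16 to 5.08) and 5.31% (4.32 to 6.50) of reads in *rrp41* RRP41Pi- and on 2.74% (2.41 to 3.11) and 1.91% (1.53 to 2.39) in *rrp41* RRP41Pi-Cat-. They were found on 16.6% (15.7 to 17.6) and 12.7% (12.0 to 13.5) of reads in *rrp6L2 rrp41* RRP41Pi-Cat-. The mean was 14.7% against 3.49% ± 1.49 (SD, n = 4), a difference of 11.2 percentage points or 4.2-fold, and the groups did not overlap. With 2 against 4 libraries there are 15 relabelings, and the two-sided exact permutation test gave p = 0.0667, the smallest it allows, with 0.156 after adjustment over the 14 single values compared. The share of reads without a tail was lower in the limma fit across 16 tail classes, with a log2 fold change of -0.18 ± 0.06 (SE) and an adjusted p of 0.0101. Without *rrp6L2 rrp41* RRP41Pi-Cat- replicate 1 this change was -0.14 and no longer passed (adjusted p = 0.0740).

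For tails of at least 2 nt, the shares were 3.08% and 3.11% in *rrp41* RRP41Pi-, 1.74% and 1.14% in *rrp41* RRP41Pi-Cat-, and 12.3% and 6.63% in *rrp6L2 rrp41* RRP41Pi-Cat-. Both libraries without RRP6L2 again lay above all 4 others (exact permutation test, p = 0.0667). The 2 replicates differed from each other by more than their counting intervals, which were 11.5 to 13.2 and 6.08 to 7.23.

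**Figure D1:**
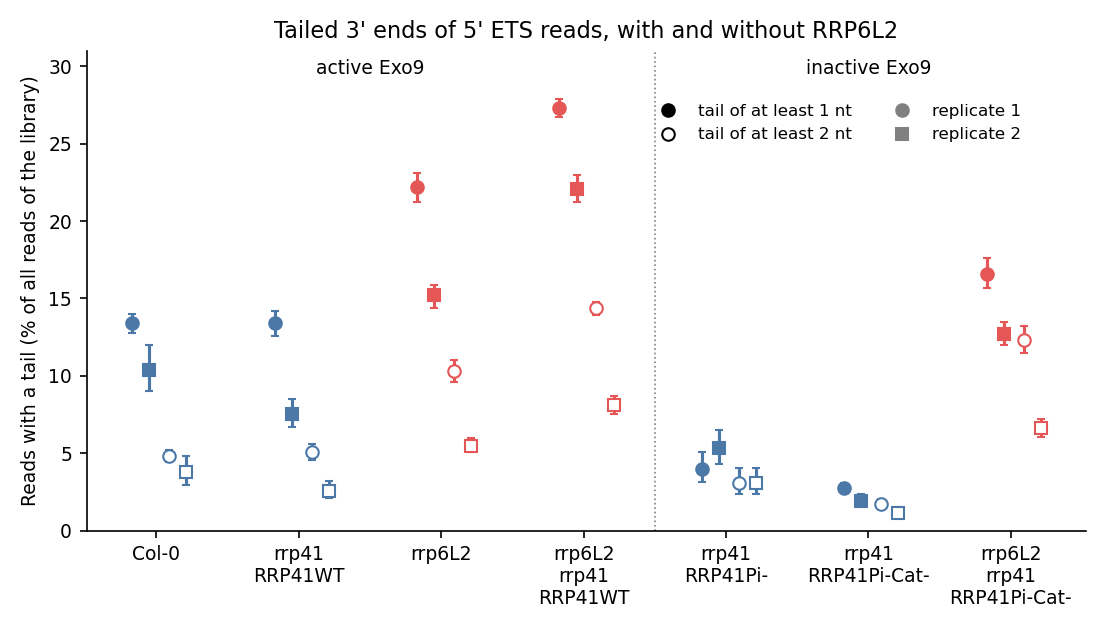
Percentage of reads with a tail of at least 1 nt (filled) and at least 2 nt (open) in each library, with 95% Wilson intervals, for genotypes with active Exo9 (left) and inactive Exo9 (right), libraries without RRP6L2 in red and the others in blue. With inactive Exo9 the filled points lie between 1.91 and 5.31% with RRP6L2 and at 16.6 and 12.7% without it.

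The tailed share differed most for ends from P163 to P184. Among reads ending there, 1.28% and 4.44% were tailed in *rrp41* RRP41Pi- and 1.35% and 1.24% in *rrp41* RRP41Pi-Cat-, against 20.4% and 16.4% without RRP6L2. The means differed by 16.3 percentage points, and the groups did not overlap (exact permutation test, p = 0.0667, adjusted to 0.133 over 4 regions whose limits were set after the values were seen). Shorter fragments ending from P140 to P162 were tailed in all 6 libraries, at 31.3% and 20.6% in *rrp41* RRP41Pi-, 22.9% and 18.8% in *rrp41* RRP41Pi-Cat-, and 34.2% and 27.3% without RRP6L2. These ranges overlapped, and the difference of 7.36 points did not exceed the spread between libraries (exact permutation test, p = 0.267). For P185 and beyond, the tailed share ran from 0.393 to 2.63% in the reference and was 3.15% and 2.51% without RRP6L2. Before P140 it ran from 2.69 to 6.42% and was 10.6% and 14.0% without RRP6L2 (exact permutation test, p = 0.0667).

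Within P163 to P184, recorded tailing was concentrated at the 9 ends shown in capitals above. They held 15.4%, 42.5%, 21.1% and 28.4% of the tailed reads of the reference libraries, from *rrp41* RRP41Pi- replicate 1 to *rrp41* RRP41Pi-Cat- replicate 2, and 73.4% and 63.4% of those without RRP6L2. Of all reads at these ends, 49.2% and 33.2% were tailed without RRP6L2, against 5.07 to 12.8% in the reference. The 9 ends were chosen after their values were seen, and these shares are a description. Most other ends of this stretch cannot show A tails in full under the recording rules above. An A added at P163, P167, P168, P171, P175, P178 or P182 counts as encoded, and longer A tails at P166, P170, P174 and P181 were removed. How far these rules account for the concentration was not tested. Ends elsewhere were tailed at 1.51 to 3.82% in the reference and at 5.87% and 6.14% without RRP6L2, so the difference outside the 9 ends was smaller but had the same direction in both libraries.

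At P165, 1 of 81, 6 of 69, 15 of 380 and 2 of 74 reads were tailed in the reference libraries, against 263 of 483 and 102 of 321 without RRP6L2. The tailed share was thus 54.5% and 31.8%, against 1.23 to 8.70%. At P169 the tailed share was 51.8% and 29.1%, against 4.46 to 12.7%. At P164 the shares were 49.4% and 39.5%, against 0 to 12.5%. At P173 they were 30.4% and 28.0%, against 0 to 6.98%. At each of these 4 ends the groups did not overlap, and the two-sided exact permutation test gave p = 0.0667. The same held for P170, with 7.73% and 15.7% against 0 to 1.53%, and for P185, with 3.72% and 3.95% against 0 to 2.02%. Of the 59 positions with reads in all 6 libraries, 35.6% had both libraries without RRP6L2 above all 4 others in tailed share.

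The ends further 3′ were rare in the reference, so their tailed shares there rest on few reads. At P172, 48 of 65 and 45 of 89 reads were tailed without RRP6L2, while the reference libraries had 9 tailed reads among 46. Its single tailed read of *rrp41* RRP41Pi- replicate 1 puts that library at 100%, and the exact permutation test gave p = 0.533. At P176 the tailed share was 53.1% and 31.5%, against 0 to 25.0% in the reference. At P177 it was 37.0% and 47.3%, against 0 to 23.5%. Both ends lay above the reference in both libraries (exact permutation test, p = 0.0667). At P179 it was 29.1% and 21.7%, and the reference libraries overlapped with these values at 0 to 33.3%, with 4 tailed reads among 24. At P180, 34 of 76 and 44 of 120 reads were tailed, and the reference had 1 tailed read among 9.

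The abundant ends P166, P168 and P186 were rarely tailed in all 6 libraries. At P166, 40 of 1055 and 24 of 637 reads had a tail without RRP6L2, or 3.79% and 3.77%, against 0 to 0.212% in the reference. This end adjoins P165, where the share was several times as high, although reads with A tails of at least 2 nt at P166 had been removed. At P186 the tailed share was 0.926% and 0.421%, within the range of 0 to 0.930% in the reference. P168 had 0.756% and 0.850%, but its A-tailed fragments are recorded at P169. P161, which was on 8.85 to 12.9% of reads in Col-0 and *rrp41* RRP41WT, is a rare end when Exo9 is inactive. It was tailed at 30.8 to 65.4% in the reference and at 40.0% and 30.8% without RRP6L2, from no more than 26 reads per library.

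**Figure D2:**
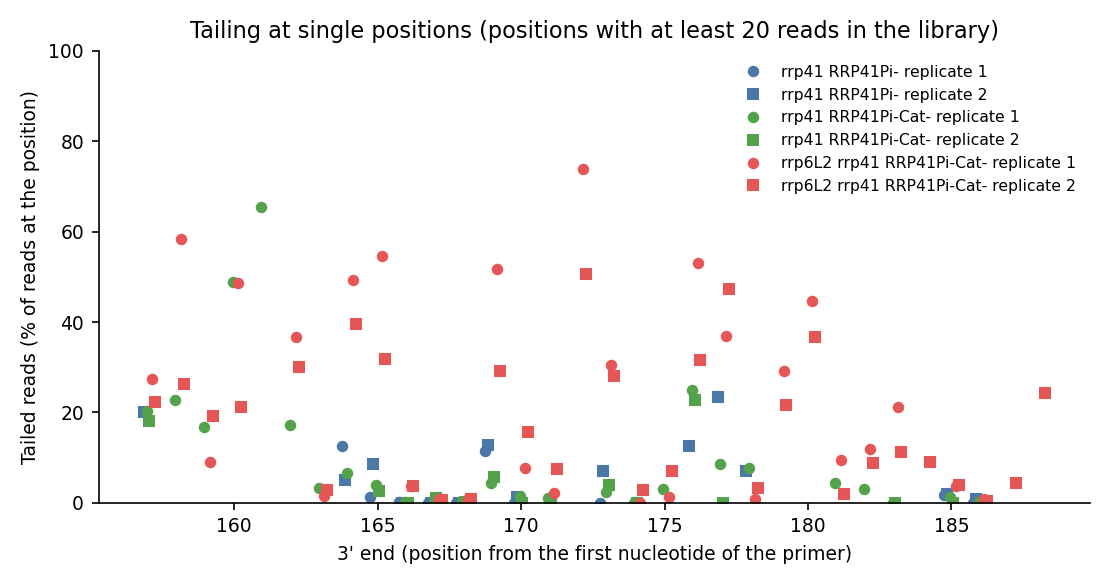
Tailed reads as a percentage of the reads at each 3′ end from P155 to P190, per library, for positions with at least 20 reads in that library. The red points (without RRP6L2) stand at 29.1 to 54.5% at P165 and P169, where the reference libraries lie between 1.23 and 12.7%, and both groups lie at 3.79% or less at P166 and P168 and at P186.

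Tails consisted mainly of adenosine in both groups. A made up 90.4% and 89.1% of the bases of tails of at least 2 nt in *rrp41* RRP41Pi-, 88.7% and 88.7% in *rrp41* RRP41Pi-Cat-, and 94.7% and 89.9% without RRP6L2. The last of these lies within the reference range, so the groups overlapped, and the means differed by 3.04 points (exact permutation test, p = 0.133). The mean length of these tails was 7.26 and 8.12 nt in *rrp41* RRP41Pi-, 8.76 and 7.86 nt in *rrp41* RRP41Pi-Cat-, and 9.03 and 7.14 nt without RRP6L2. The means differed by 0.0860 nt, and the 2 replicates without RRP6L2 lay on either side of the reference (exact permutation test, p = 0.867). Tails of As alone were 47.1 to 60.0% of these tails in the reference and 66.4% and 54.1% without RRP6L2. Guanosine was the next most frequent base, at 5.51 to 6.94% in the reference and 3.08% and 4.94% without RRP6L2, where both libraries lay below the reference; this was not tested.

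In the fit across 16 exclusive classes of tails, 13 classes passed the adjusted threshold of 0.05, which is 81.2% of those tested. Of the 16, 12 were higher without RRP6L2 (75.0%), and 1, reads without a tail, was lower (6.25%). Single untemplated As were on 0.864% and 1.40% of reads in *rrp41* RRP41Pi-, on 0.484% and 0.388% in *rrp41* RRP41Pi-Cat-, and on 3.66% and 4.91% without RRP6L2. This class rose most clearly, by 2.60 ± 0.34 (SE) on the log2 scale (adjusted p = 7.87e-07). It includes ends such as P170 and P177, where longer A tails had been removed. Without RRP6L2 these ends had 58 and 138 tailed reads, of which 94.8% and 97.8% had tails of 1 nt. How far the removal enters the rise of single As was not tested. Tails of As alone of 2, 3, 4 and 5 nt rose by 2.21, 2.64, 2.4 and 1.96, and their shares did not overlap with the reference. Their adjusted p was 5.53e-04, 2.49e-04, 0.00102 and 0.00622, and the call for 5 nt ended when *rrp6L2 rrp41* RRP41Pi-Cat- replicate 1 was left out (adjusted p = 0.0740).

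Longer tails differed between the 2 replicates without RRP6L2. Tails of 6 to 10 As were on 0.259 to 0.925% of reads in the reference and on 3.08% in replicate 1 but 0.900% in replicate 2, which lies within the reference range. Tails of 11 to 15 As were on 0.0517 to 0.177% of reads in the reference and on 1.27% and 0.221% without RRP6L2. Tails of 16 to 30 As were on 0.0517 to 0.0617% and on 0.777% and 0.180%. All 3 classes passed in the fit, with log2 fold changes of 1.91, 2.39 and 2.28 and adjusted p of 0.0133, 0.0133 and 0.0142. Without replicate 1 of *rrp6L2 rrp41* RRP41Pi-Cat- none of the 3 passed, with changes of 1.03, 1.18 and 1.28 and adjusted p of 0.248, 0.295 and 0.295. Leaving out a library of *rrp41* RRP41Pi- also ended calls: without replicate 2 all 3 were lost (adjusted p = 0.0672, 0.0613 and 0.0613), and without replicate 1 those of 11 to 15 and 16 to 30 As (adjusted p = 0.0695 and 0.0700).

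Tails in which A was joined by other bases rose too. Those of 2 to 5 nt were on 0.165 to 0.308% of reads in the reference and on 0.910% and 1.07% without RRP6L2, a log2 fold change of 2.05 ± 0.49 (SE, adjusted p = 0.00102). Those of 6 to 30 nt were on 0.336 to 1.34% and on 2.99% and 1.81% (log2 fold change 1.67 ± 0.49, adjusted p = 0.00568, and 0.0523 without *rrp6L2 rrp41* RRP41Pi-Cat- replicate 1). Single Cs were not detectably different at this depth, with a log2 fold change of 0.05 ± 0.60 (adjusted p = 0.940). Single Gs and Ts passed with adjusted p of 0.0245 and 0.0167, from 0 to 16 reads per reference library. Both lost the threshold without *rrp41* RRP41Pi- replicate 1, which had none of either (adjusted p = 0.270 and 0.179), and without *rrp6L2 rrp41* RRP41Pi-Cat- replicate 2 (adjusted p = 0.212 for both), and single Gs also without *rrp41* RRP41Pi-Cat- replicate 1 (adjusted p = 0.0712).

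Tail length varied between ends when the tailed reads of both *rrp6L2 rrp41* RRP41Pi-Cat- libraries were pooled, as in all values by end given here. The median tail was 8 nt at P164, 7 nt at P165, 6 nt at P169 and 4 nt at P172, and shorter at P176 and P179 with 3 nt each. Replicate 1 gave most of the tailed reads at P164, P165 and P169, and replicate 2 most of those at P176 and P179. Tails of at least 2 nt averaged 9.03 nt in replicate 1 and 7.14 nt in replicate 2. Whether tail length varied between ends within each library was not tested. Single As made up most tails at P170 and P177, where 94.8% and 97.8% of tails had 1 nt, and where longer A tails are removed by the authors' rule. At P173 and P180, which this rule does not touch for A tails, single nucleotides were 51.3% and 46.2% of tails.

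**Figure D3:**
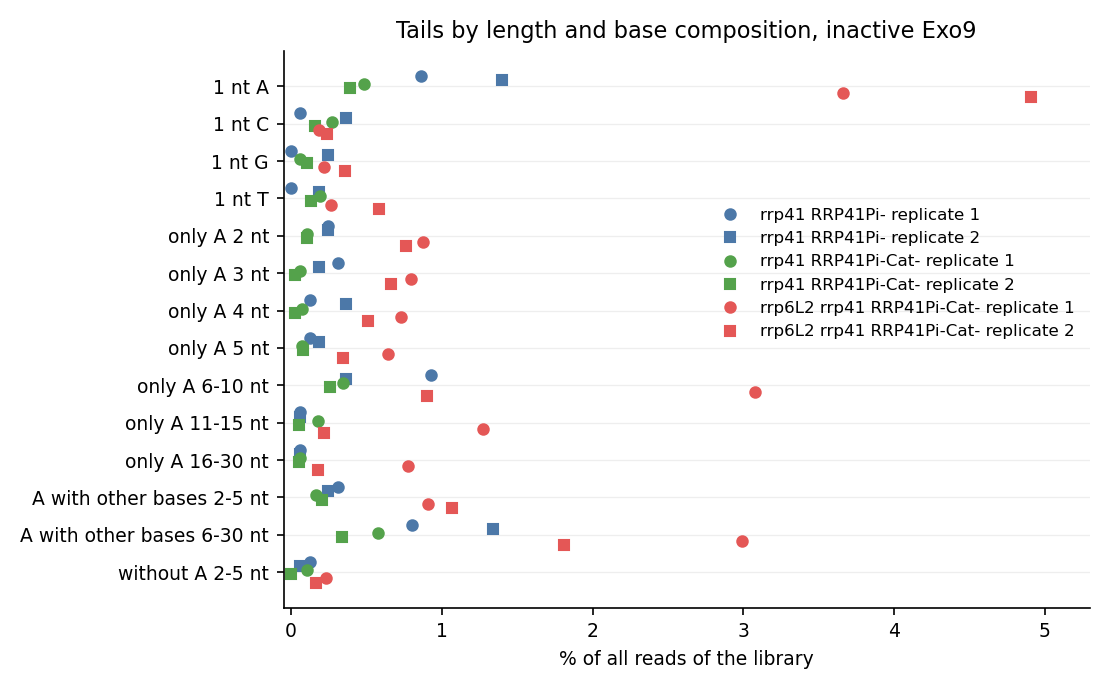
Share of all reads of a library in each class of tail, by length and base composition, for the 6 libraries with inactive Exo9; reads without a tail and the class without reads are not drawn. The libraries without RRP6L2 (red) stand apart for single As, at 3.66 and 4.91%, while for tails of 6 to 10 As only replicate 1, at 3.08%, lies beyond the reference.

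The 3′ ends that gained in share lay from P172 to P180. Of 84 positions with at least 100 reads over the 26 libraries, 7.14% passed the adjusted threshold in the limma fit, all 6 higher without RRP6L2: P172, P175, P177, P178, P179 and P180. No position passed as lower, although 5 were lower at an unadjusted p under 0.05, among them P131 and P157 (log2 fold change -1.47 and -1.35, adjusted p = 0.0702 and 0.0909, both named after their values were seen), and a limma-trend fit on log2(percent + 0.1) called 1 as lower, P131. P131 passed as lower in 6 of the alternatives (adjusted p = 0.0134 to 0.0419) and P157 in 4 (0.0231 to 0.0449), and thinning to 1621 reads called 4 positions as lower, P126, P131, P157 and P161. The median log2 fold change over the 84 positions was -0.18.

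P179 and P180 changed most. P179 was on 0.185% and 0.366% of reads in *rrp41* RRP41Pi-, on 0.142% and 0.0776% in *rrp41* RRP41Pi-Cat-, and on 1.42% and 3.57% without RRP6L2. It rose by 3.60 ± 0.51 (SE) on the log2 scale (adjusted p = 4.37e-06). P180 had 9 reads in the 4 reference libraries together, none of them in *rrp41* RRP41Pi- replicate 1, where 0 of 1621 reads allows a share of up to 0.185%. It was on 1.26% and 1.66% of reads without RRP6L2, and its fitted log2 fold change was 4.53 ± 0.59 (adjusted p = 1.62e-06). Both calls held when any of the 6 libraries was left out.

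P178 was on 0.247% and 1.71% of reads in *rrp41* RRP41Pi-, on 0.307% and 0.440% in *rrp41* RRP41Pi-Cat-, and on 1.75% and 3.42% without RRP6L2 (log2 fold change 2.30 ± 0.47, adjusted p = 0.00109). *rrp41* RRP41Pi- replicate 2 stood apart from the rest of the reference here, close to the lower of the values without RRP6L2. P177 was on 0.185%, 2.07%, 0.272% and 0.543% of reads in the reference, in the same order, and on 1.52% and 3.04% without RRP6L2, so that the groups overlapped through the same library (log2 fold change 2.12 ± 0.50, adjusted p = 0.00472). P175 rose from 0.247 to 0.976% in the reference to 1.26% and 1.95% (1.75 ± 0.43, adjusted p = 0.00472), and P172 from 0.0617 to 0.732% to 1.08% and 1.23% (2.10 ± 0.52, adjusted p = 0.00472). Without *rrp6L2 rrp41* RRP41Pi-Cat- replicate 2, P172, P175, P177 and P178 no longer passed (adjusted p = 0.0998, 0.206, 0.215 and 0.0998), and without *rrp41* RRP41Pi- replicate 1, P172, P175 and P177 did not (0.0921, 0.0700 and 0.0823).

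When only reads without a recorded tail were counted, 5 of the 6 positions still passed, and P172, the end with the highest tailed share, did not (log2 fold change 1.45, adjusted p = 0.158). A single A added at P171 or P178 counts as encoded, so such fragments stay among these reads as ends at P172 or P179. This count therefore cannot separate a gain in ends from tailing there. Summed over P178 to P184, 0.987% and 3.29% of reads ended there in *rrp41* RRP41Pi-, 1.52% and 2.38% in *rrp41* RRP41Pi-Cat-, and 6.90% and 11.4% without RRP6L2. The groups did not overlap (exact permutation test, p = 0.0667, adjusted to 0.40 over 12 zones). Of the 84 positions, 27.4% had both libraries without RRP6L2 outside the reference range.

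None of the abundant ends P166, P168 and P186 passed in the fit of all reads. In simulated data this fit called 14 of 100 positions raised 2-fold, so changes of that size would mostly be missed. P166 was on 29.1% and 14.8% of reads in *rrp41* RRP41Pi-, on 22.1% and 13.3% in *rrp41* RRP41Pi-Cat-, and on 17.4% and 8.82% without RRP6L2. The replicates of each genotype differed more than the groups, and the difference in means of -6.71 points was not called (exact permutation test, p = 0.333; limma adjusted p = 0.268). P168 was on 9.07%, 14.3%, 11.4% and 20.8% of reads in the reference, in the same order, and on 8.75% and 8.14% without RRP6L2. Both values lie just below the reference range, but the difference did not pass (exact permutation test, p = 0.20; limma adjusted p = 0.232). P186 was on 13.1 to 16.5% of reads in the reference and on 14.3% and 19.7% without RRP6L2 (limma adjusted p = 0.820), with an overlap between the groups.

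Of the smaller ends, P165 was on 1.91 to 5.0% of reads in the reference and on 7.99% and 4.44% without RRP6L2, and P169 on 2.16 to 4.08% and on 6.0% and 4.37%. Neither passed (adjusted p = 0.327 and 0.278). P167, P170 and P185 had means of 4.80, 4.44 and 5.53% in the reference and of 3.46, 3.63 and 4.85% without RRP6L2, and none of the 3 passed. P176 was on 0.185%, 2.44%, 0.236% and 0.569% of reads in the reference and on 1.06% and 2.06% without RRP6L2 (adjusted p = 0.0702, and 0.00847 without *rrp41* RRP41Pi- replicate 2, the library at 2.44%). P161 was on 0.129 to 0.864% of reads in the reference and on 0.248% and 0.180% without RRP6L2 (adjusted p = 0.330).

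**Figure D4:**
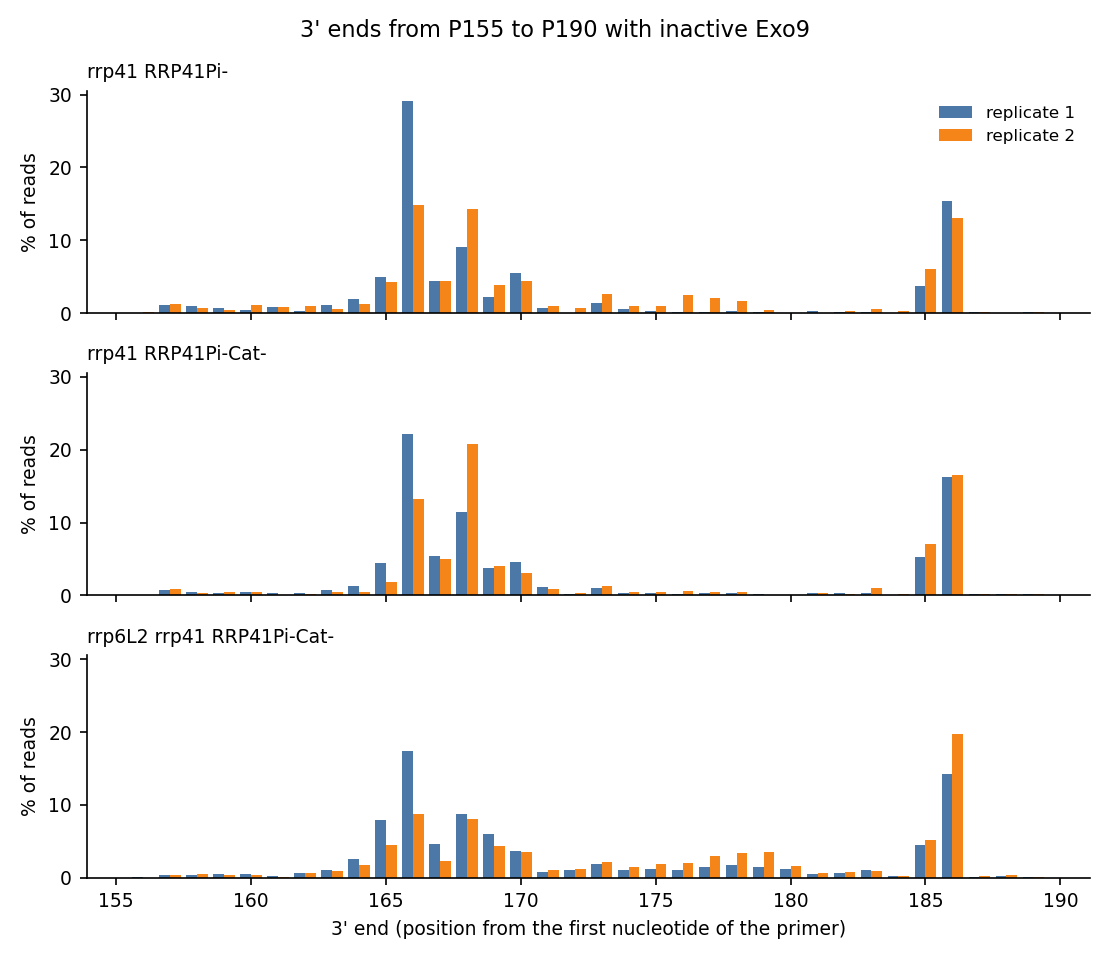
Percentage of all reads of a library ending at each position from P155 to P190 in *rrp41* RRP41Pi- (top), *rrp41* RRP41Pi-Cat- (middle) and *rrp6L2 rrp41* RRP41Pi-Cat- (bottom), 1 bar per replicate. P166, P168 and P186 are the tallest bars in the upper panels, and P178 to P180 are higher in both replicates of the bottom panel, where P179 reaches 1.42 and 3.57%.

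The position of tails was also compared within the tailed reads, as shares of all tailed reads of a library. A rise at some ends therefore lowers the shares of the others. Of 39 positions with at least 100 tailed reads over the 26 libraries, 33.3% passed the adjusted threshold, 2 higher (5.13%) and 11 lower (28.2%) without RRP6L2. At 11 of the 39, also 28.2%, both libraries without RRP6L2 lay outside the reference range. The balance of the 2 directions depended on the model. Limma-trend on log2(percent + 0.1) called 10 as higher and 6 as lower, shared 8 of the 13 calls and did not call P151, P156, P158, P159 and P178. With the replicate number as a block, 6 were higher and 14 lower. P165 held 1.54%, 6.90%, 6.47% and 2.7% of the tailed reads of the reference libraries, in the order above, and 26.2% and 11.1% of those without RRP6L2 (log2 fold change 1.90 ± 0.60, adjusted p = 0.0140). It did not pass without *rrp6L2 rrp41* RRP41Pi-Cat- replicate 1 (adjusted p = 0.242) or without *rrp41* RRP41Pi- replicate 1 (adjusted p = 0.0543). P180 was the other position with a higher share, from 1 tailed read in the reference to 34 and 44 (adjusted p = 0.0214), and it lost the threshold in 4 of the 6 fits with a library left out, with adjusted p from 0.0525 to 0.133.

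The 11 positions with a lower share of the tailed reads were P150, P151, P154, P156, P157, P158, P159, P160, P161, P178 and P187. P161 fell from 13.8%, 4.6%, 7.33% and 2.7% of tailed reads to 0.597% and 0.435% (log2 fold change -3.58 ± 0.70, adjusted p = 2.94e-04), and P157 from 9.23%, 4.6%, 5.17% and 8.11% to 0.597% and 0.653% (-3.33 ± 0.70, adjusted p = 4.68e-04). P160 fell from 5.75 to 9.46% to 1.69% and 0.762% (-2.86 ± 0.64, adjusted p = 6.97e-04). P161 had 2 to 17 tailed reads per reference library and 6 and 4 without RRP6L2, while all tailed reads together were 65 to 232 and 1005 and 919. Of the reads ending at P157, 18.2 to 33.3% were tailed in the reference and 27.3% and 22.2% without RRP6L2. At P160 the tailed share was 27.8 to 75.0% in the reference and 48.6% and 21.2% without RRP6L2, so both ends overlapped between the groups. P150, P151, P154, P156, P178 and P187 rest on no more than 8 tailed reads in any of the 6 libraries. Of the 13 calls, 4 were kept without *rrp6L2 rrp41* RRP41Pi-Cat- replicate 1, 7 without *rrp41* RRP41Pi- replicate 1 and 8 without *rrp6L2 rrp41* RRP41Pi-Cat- replicate 2.

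To see whether these changes belong to the inactive form of Exo9, they were set against the loss of RRP6L2 with active Exo9, in *rrp6L2* and *rrp6L2 rrp41* RRP41WT against Col-0 and *rrp41* RRP41WT, 4 against 4 libraries. Tails of at least 1 nt were on 7.56 to 13.4% of reads with RRP6L2 and on 15.2 to 27.3% without it. In the same fit, 21.4% of the 84 positions passed with active Exo9, 11 higher (13.1%) and 7 lower (8.33%), among them P172, P177, P178, P179 and P180 as higher (log2 fold change 1.66, 1.55, 2.45, 1.37 and 2.10). P175 was called with inactive Exo9 only and changed by 0.45 ± 0.28 with active Exo9 (adjusted p = 0.258), but the difference of 1.30 ± 0.51 did not pass (adjusted p = 0.255). The difference of the 2 effects passed at no position after adjustment in the limma voom fit, which is 0% of the 84, with 13 at an unadjusted p under 0.05 and 2 called by limma-trend on log2(percent + 0.1). P179 and P180 had the largest excess with inactive Exo9 among the 6 positions called, 2.23 ± 0.63 and 2.43 ± 0.73 on the log2 scale (adjusted p = 0.108 for both). They are also the 2 positions called by limma-trend (adjusted p = 0.0233 and 0.00320), after thinning (0.00908 and 0.00809) and with the replicate number as a block, where the differences were 2.30 and 2.54 (0.0365 for both). P179 alone passed without *rrp6L2 rrp41* RRP41Pi-Cat- replicate 1 (adjusted p = 0.0113), and neither passed with any other library left out. P178 changed by 2.30 and 2.45, with a difference of -0.15 ± 0.59 (adjusted p = 0.92).

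The tailed share of single ends is given for both states of Exo9 side by side, without a test. P165 was on 0.392 to 1.41% of reads in Col-0 and *rrp41* RRP41WT, and 3.57 to 6.67% of those were tailed. Without RRP6L2 but with active Exo9 the tailed share at P165 was 6.90 to 14.9%, against the 54.5% and 31.8% with inactive Exo9. At P177 it was 26.9 to 58.0% with RRP6L2 and active Exo9 and 43.8 to 46.9% without RRP6L2. At P172 it was 11.8 to 26.3% and 46.4 to 67.4%, next to the 73.8% and 50.6% with inactive Exo9. At P173 it was 2.13 to 10.6% and 29.4 to 49.6%, next to 30.4% and 28.0% with inactive Exo9. At P169 it was 3.05 to 4.41% and 10.2 to 33.1%, next to 51.8% and 29.1%. At P164 it was 2.38 to 8.93% and 5.19 to 19.5%, next to 49.4% and 39.5%.

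Among tail classes, the log2 fold change on loss of RRP6L2 differed with the state of Exo9 for 2 of the 16, or 12.5%. This comparison was chosen after the values were seen. With active Exo9 alone, 62.5% of the classes passed, 9 as higher (56.2%) and 1, reads without a tail, as lower (6.25%). Single As were on 3.53 to 5.40% of reads with active Exo9 and RRP6L2 and on 7.28 to 11% without RRP6L2, a log2 fold change of 0.75 ± 0.14, against 2.60 with inactive Exo9. The difference of 1.84 ± 0.37 had an adjusted p of 5.40e-04. For tails of 2 to 5 nt in which A was joined by other bases, the difference was 1.69 ± 0.56 (adjusted p = 0.0460). Neither difference was fitted in an alternative setting. The lower level in the reference with inactive Exo9, where single As were on 0.388 to 1.40% of reads, enters both differences. In points, the mean share of single As went from 0.785 to 4.28% with inactive Exo9 and from 4.91 to 8.88% with active Exo9. Single As at ends where longer A tails had been removed belong to this class too. For tails of 2 and 3 As alone, the differences were 1.41 ± 0.56 and 1.32 ± 0.64, and neither passed (adjusted p = 0.105 and 0.184). For the 5 classes of As alone of at least 4 nt, the differences were between -0.32 and 0.54, and none passed.

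**Figure D5:**
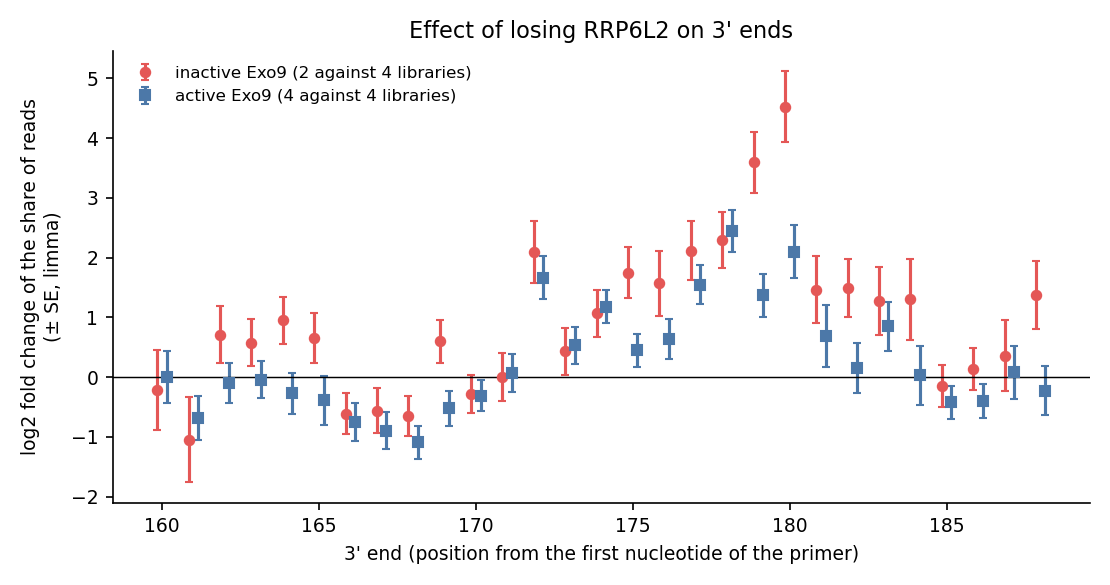
Log2 fold change (± SE, limma) of the share of reads at each 3′ end from P160 to P188 on loss of RRP6L2, with inactive Exo9 (red circles) and active Exo9 (blue squares). P177 to P180 passed in both sets, with 4.53 and 2.10 at P180.

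The rRNA gene copies in the reads differ at 1 base, T137C, with positions numbered as for the ends. Of the reads that end from P157 on, 71.6% and 51.4% carried the C in *rrp41* RRP41Pi-, 68.9% and 76.5% in *rrp41* RRP41Pi-Cat-, and 76.6% and 70.9% without RRP6L2. These groups overlapped. With active Exo9 they did not: 54.1 to 80.2% carried the C in Col-0 and *rrp41* RRP41WT. In *rrp6L2* and *rrp6L2 rrp41* RRP41WT it was 34.4 to 43.1%. Whether this enters the differences between the states of Exo9 was not tested. Among reads with C at this base and inactive Exo9, all 6 positions passed again, and among reads with the reference base 5 of the 6 did. P168 passed as lower among reads with the reference base (log2 fold change -0.92, limma adjusted p = 0.0405).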

How the data were processed

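The deposited table holds 1 row per read, with the authors' position of the 3′ end, the encoded sequence and the added nucleotides. The authors ligated an adapter with 15 random nucleotides to RNA 3′ ends, selected RNA of 100 to 400 nt, sequenced amplicons (MiSeq), removed duplicates and took up to 30 unmatched 3′ nucleotides as the tail; tails of at least 6 nt were kept only with AAA or TTT.

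Rows were counted per library, and shares are percentages of all its reads (Python 3.11.15, pandas 2.3.3). Groups came from the genotype labels. Positions with at least 100 reads and 16 tail classes were fitted with voom and limma 3.58.1 (R 4.3.3) over all 26 libraries, one mean per genotype, with Benjamini-Hochberg adjustment and a threshold of 0.05; the same contrasts gave the effect with active Exo9. The script was tested on simulated data with an assumed spread. It called 14 of 100 positions raised 2-fold, 73 of 100 raised 4-fold and 6 of 1480 left unchanged. Changes near 2-fold would thus mostly be missed. Single values were compared by exact permutation (scipy 1.17.1). Named positions were P161, P168, P176, P186, those with a mean share of at least 3%, and up to 15 called positions whose groups did not overlap; others were named after their values were seen. Members and lists were chosen with earlier results of these data known. Alternatives were another model, reference, denominator, filter, depth, scaling, T137C base, a replicate block and leaving out each library.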

Additional observations from a re-analysis of the deposited data

Results flagged for a closer look

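In 56 groups of 4 reference values, 4 had a library whose gap to the nearest other exceeded Dixon's 95% critical share of the whole range, and about 1 in 20 would by chance. *rrp41* RRP41Pi- replicate 2 stood above the other reference libraries at P176, with 2.44% of reads against 0.185 to 0.569%, and at P178, with 1.71% against 0.247 to 0.440%. *rrp41* RRP41Pi- replicate 1 had 0.925% of reads with tails of 6 to 10 As, against 0.259 to 0.366%. *rrp41* RRP41Pi-Cat- replicate 1 had 0.177% with tails of 11 to 15 As, against 0.0517 to 0.0617%.

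For 2 tail classes the log2 fold change on loss of RRP6L2 was larger with inactive than with active Exo9 in the limma fit. This comparison was chosen after the values were seen. In points the picture differs, since the reference with inactive Exo9 starts lower. The mean share of single As went from 0.785 to 4.28% with inactive Exo9 and from 4.91 to 8.88% with active Exo9. The difference was 1.84 on the log2 scale for single As (adjusted p = 5.40e-04) and 1.69 for tails of 2 to 5 nt in which A was joined by other bases (adjusted p = 0.0460).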

How the results depend on the processing

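The higher share of tailed reads without RRP6L2 kept its direction in every alternative run for it. The number of positions called was 6, and it was 10 with limma-trend on log2(percent + 0.5), 10 against *rrp41* RRP41Pi-Cat- alone, 12 with at least 500 reads per position, 12 after thinning to 1621 reads, 10 among reads with the C of T137C, and 2 to 9 with a library left out. Tail classes called fell from 13 to 7 when only the 6 libraries were fitted and were 7 to 13 with a library left out. Positions of tailed ends called were 13, and 6 to 12 with a library left out. Another model gave 16 with 10 higher and 6 lower, against 2 and 11. Positions called for a difference between inactive and active Exo9 were 0, 2 with limma-trend, 2 after thinning, and 0 to 1 with a library left out. The same differences for tail classes were fitted without alternatives. The causes were not tested.

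No source says that a replicate number marks a growth time shared between genotypes, but the differences between replicates 1 and 2 correlated at 0.230 to 0.354 over 84 positions in the 3 pairs of genotypes. With the replicate block, 6 positions, 14 tail classes, 20 positions of tailed ends and 2 positions for the difference between the states of Exo9 passed.

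Directions turned for values that were not called. P186 gave -0.664 points among reads with the T of T137C (-0.04 in the fit) and -1.0 to 4.45 points (-0.09 to 0.37) with a library left out. The difference in mean tail length became -0.224 nt against *rrp41* RRP41Pi-Cat- alone, -0.0301 nt for ends from P140 to P200, and -0.857 to 1.03 nt with a library left out. Counting only tails of at least 2 nt, P177 became -0.0535 points. Single Cs gave -0.02 in the 6 libraries, -0.09 against *rrp41* RRP41Pi-Cat- alone, and -0.48 to 0.57 with a library left out, and P185 then gave -0.32 to 0.03. Among tailed ends, limma-trend gave 0.70 at P168, 0.44 at P185 and 0.94 at P186, and leaving out a library gave -0.21 to 1.32 at P176, -1.16 to 0.02 at P185 and -2.7 to 0.22 at P175. It moved the difference between the states of Exo9 to -0.34 to 1.18 at P172, -0.23 to 1.42 at P177 and -0.82 to 0.50 at P178. With 1621 to 8469 reads per library, ends under 0.0354 to 0.185% of reads were not detectable.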
